A study of Canis lupus familiaris with 30 samples.

Results

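Canine follicular thyroid carcinomas (FTC) that stained strongly for HER2 were compared with FTC that stained weakly or not at all, using the RNA of each tumor. Of the 30 thyroid carcinomas sequenced, 17 entered the comparison. HER2 immunohistochemistry (IHC) had been scored under the ASCO/CAP guideline, which reads 3 as a positive stain, 2 as equivocal and lower scores as negative. The score 3 group held 8 FTC (TC1213, TC1869, TC2011, TC2089, TC2402, TC67, TC812 and TC815), and the score 0 or 1 group held 9 FTC (TC1123, TC1164, TC1241, TC1744, TC1994, TC22, TC2288, TC640 and TC902), of which 1 scored 0. Left out were 7 FTC with score 2, 5 medullary carcinomas (MTC) and TC1088, an FTC that the study also set aside from its differential expression.

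Every tumor came from a different dog, a naturally occurring cancer of a patient, and the study told FTC from MTC by calcitonin, read from the stain, the transcript or both. The score 3 dogs were 6 females and 2 males aged 9 to 12 years. The score 0 or 1 dogs were 2 females and 7 males aged 8 to 15 years. The score 3 tumors were follicular (3) or follicular-compact (5), 3 were ectopic and 5 of the dogs had metastasis at diagnosis. The score 0 or 1 tumors were follicular (5), follicular-compact (3) or compact (1), 0 were recorded as ectopic and 2 of the dogs had metastasis at diagnosis. Moderate differentiation was recorded for 5 of 8 score 3 tumors and 6 of 9 score 0 or 1 tumors, and the rest were well differentiated. HER2 was stained on fixed, embedded tissue and RNA was extracted from frozen tissue, so stain and transcript were not read from the same piece. The ASCO/CAP guideline was written for human tissue. Under the Peña scheme, which was written for dogs, TC1213 and TC67 score 2 and not 3.

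HER2, encoded by *ERBB2*, is a receptor tyrosine kinase of the ErbB family, with EGFR (HER1), ERBB3 and ERBB4. It has no known ligand of its own and signals by pairing with the other family members, which bind EGF-like ligands and neuregulins. Active pairs feed the RAS-ERK and PI3K-AKT pathways that drive growth. In human breast and gastric carcinomas a strong HER2 stain often goes with extra copies of a chromosome segment that carries *ERBB2* and its neighbours *GRB7*, *MIEN1*, *PGAP3* and *STARD3*. DNA copy number was not analysed here.

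Between 17786560 and 45148677 reads were counted on genes in the score 3 tumors (median 26325458), and between 18275492 and 35898141 in the score 0 or 1 tumors (median 24554019). Spearman's correlation between tumors over the genes tested ranged from 0.859 to 0.942 within score 3, from 0.844 to 0.945 within score 0 or 1, and from 0.84 to 0.939 between the groups. The 17 tumors carried thyroid transcripts. The level of *TG*, the thyroglobulin precursor of thyroid hormone, lay between 13.46 and 22.65 in score 3 and between 13.11 and 21.59 in score 0 or 1. The level of *PAX8*, a transcription factor of follicular cells, lay between 12.88 and 14.94 and between 13.01 and 14.61. A level is the size-factor-normalized count of a gene in one tumor, plus 1, on the log2 scale, and a log2 fold change is score 3 over score 0 or 1 in the edgeR fit.

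*ERBB2* transcript was higher in the tumors whose HER2 stain was strong. In score 3 the *ERBB2* level was 12.99 at the lowest, 13.63 at the median and 14.97 at the highest (mean 13.70 ± 0.62, SD, n = 8). In score 0 or 1 it was 12.20, 12.60 and 13.63 (mean 12.73 ± 0.56, SD, n = 9). The groups overlapped: 4 of the 8 score 3 tumors lay above every score 0 or 1 tumor, and 6 of the 9 score 0 or 1 tumors lay below every score 3 tumor. The difference in mean level of 0.97 had a two-sided p of 0.00391 by exact permutation, with 24310 ways to split the tumors. The edgeR fit gave a log2 fold change of 0.98 (SE 0.29, 1.97-fold, unadjusted p = 0.00315). Adjusted over all genes, that p was 0.157 by edgeR's quasi-likelihood test, and *ERBB2* ranked 347 of 17310 genes by p. DESeq2 gave it an adjusted p of 0.0412.

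The overlap came from tumors of both groups. TC1744 and TC22, both scored 1, had *ERBB2* levels of 13.63 and 13.49, while TC1213 and TC815, both scored 3, had 12.99 and 13.20. The counts behind these levels were 13510 and 16383 reads in TC1744 and TC22, and 10232 and 11520 reads in TC1213 and TC815, so the counting error was small beside the spread between tumors. The highest level, in TC1869, was 14.97 with 36742 reads. The 7 score 2 tumors, outside the comparison, spanned 11.65 to 13.91 (median 13.24), overlapping both groups. The lowest of them, TC538, had 898 reads. The MTC had 6.04 to 11.23 (median 6.46) and TC1088 had 10.58.

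**Figure D1:**
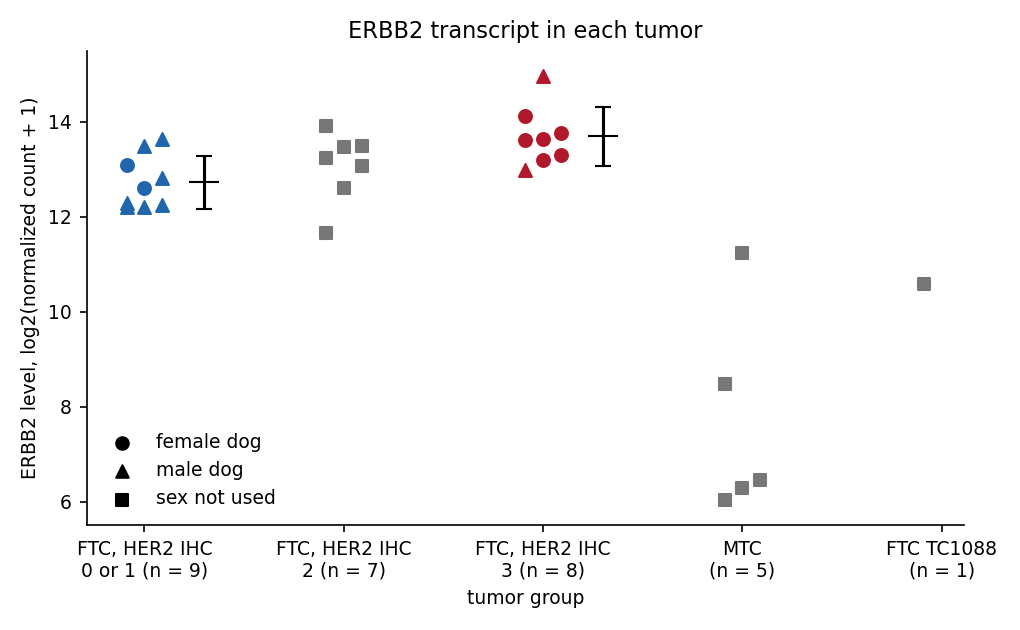
*ERBB2* level, log2(normalized count + 1), in each of the 30 tumors by group; points are tumors, and the bar beside the compared groups is the mean ± SD. The score 3 tumors lie between 12.99 and 14.97 and the score 0 or 1 tumors between 12.20 and 13.63, with overlap between 12.99 and 13.63.

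Recorded sex was unequal between the groups, so the *ERBB2* level was also compared among dogs of one sex. Among females the difference was 0.76 (6 against 2, exact permutation p = 0.0357, the smallest that 28 splits allow). Among males it was 1.28 (2 against 7, exact permutation p = 0.0833 over 36 splits). With the tumors split only within sex, the weighted difference was 1.03 (exact permutation p = 0.00992 over 1008 splits). Leaving out each tumor in turn kept the difference between 0.79 and 1.08, and the lowest value was reached without TC1869.

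Of the other ErbB receptors, none passed the test across genes. *EGFR*, a dimerization partner, had levels of 6.70, 8.27 and 9.37 (lowest, median, highest) in score 3 and 8.06, 9.05 and 10.49 in score 0 or 1. Its log2 fold change was -0.84 (SE 0.39, adjusted p = 0.312, edgeR). *ERBB3*, a partner with little kinase activity of its own, had levels of 7.45, 9.51 and 11.65 in score 3 and 6.91, 7.29 and 11.80 in score 0 or 1 (log2 fold change 0.97, SE 0.79, adjusted p = 0.562, edgeR). The level of *ERBB3* was above 10 in TC1164 and TC2288 of the score 0 or 1 group, and its log2 fold change was 0.00 with sex in the fit. *ERBB4* had levels up to 4.87 and 3.84 and did not reach the count minimum of 10 counts in 5 tumors.

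Of 10 ErbB ligand genes in the table, 8 were tested and none was called. *TGFA*, an EGFR ligand, had levels of 4.08, 6.58 and 7.22 in score 3 and 4.16, 5.62 and 6.60 in score 0 or 1 (log2 fold change 0.90, SE 0.44, adjusted p = 0.339, edgeR). *EGF* varied more within the groups than between them, from 3.90 to 12.46 in score 3 and from 2.38 to 12.14 in score 0 or 1, with a log2 fold change of 0.19 (SE 1.34). The neuregulins *NRG1*, *NRG2* and *NRG3*, ligands of ERBB3 and ERBB4, had log2 fold changes of 0.02 (SE 0.71), -0.72 (SE 0.54) and 0.25 (SE 1.16). *HBEGF* had 0.11 (SE 0.31), *AREG* -0.14 (SE 0.94) and *EPGN* -0.62 (SE 0.58), all overlapping between groups. *EREG* and *BTC* stayed under the count minimum. The signs of *EGF*, *AREG*, *HBEGF*, *NRG1* and *NRG3* changed with the setting.

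Across all genes the groups differed in few. Of 17310 genes tested, 8 (0.0462%) had an adjusted p below 0.05, 4 higher in score 3 (0.0231%) and 4 lower (0.0231%). With a log2 fold change beyond 2 required as well, 0 were higher and 2 lower (0.0116%), namely *HSD17B13* and *ALPK2*. The unadjusted p was below 0.05 for 1332 genes higher (7.69%) and 1318 lower (7.61%), and the log2 fold change was above 0 for 48.1% of genes. DESeq2 called 325 genes higher (1.88%) and 233 lower (1.35%) on the same counts, among them all 8 edgeR calls. In simulated counts with these group sizes edgeR recovered 22% of genes changed by 1 on the log2 scale and 84% of those changed by 2, with 7 false calls over 17064 genes, while DESeq2 recovered 50% and 90% with 48 false calls. The changed genes were taken from those with higher counts, and genes were drawn independently. No sex difference or shift of whole chromosomes was simulated, so these rates need not hold in the tumors. With sex, histologic pattern or differentiation in the fit, without the ectopic tumors, or with score 3 defined by Peña, edgeR called 0 genes. Whichever single tumor was left out, 0 to 2 were higher and 0 to 3 lower.

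The 4 genes that rose in score 3 were *GLE1*, *SSNA1*, *CNIH4* and *DHX58*. *GLE1*, an mRNA export factor of the nuclear pore, had levels of 9.37, 9.75 and 10.09 in score 3 and 8.45, 8.81 and 9.12 in score 0 or 1. No tumor of one group reached the other, and the log2 fold change was 0.90 (SE 0.15, 1.87-fold, adjusted p = 0.0477, edgeR). *SSNA1*, a microtubule-binding protein of centrosomes and cilia, had 8.44, 8.97 and 9.68 against 7.41, 7.92 and 8.29, again without overlap (log2 fold change 1.15, SE 0.20). *CNIH4*, a cargo receptor for export from the endoplasmic reticulum, had 8.69, 9.30 and 9.88 against 7.83, 8.21 and 8.56, without overlap (log2 fold change 1.11, SE 0.19). *DHX58*, which encodes LGP2, a regulator of RNA virus sensing, had 9.66, 10.88 and 11.72 against 8.32, 9.25 and 9.99. Here TC67 (9.66) lay under TC22 (9.99) and TC2288 (9.67), while the other 7 score 3 tumors lay above all of score 0 or 1 (log2 fold change 1.58, SE 0.28). The adjusted p of each was 0.0477.

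The 4 genes that fell in score 3 were *HSD17B13*, *PXK*, *DGKH* and *ALPK2*. *HSD17B13*, a lipid droplet enzyme, had levels of 4.40, 6.38 and 7.26 in score 3 and 8.39, 8.90 and 9.82 in score 0 or 1. It was the gene with the lowest p, without overlap, and fell by 2.69 on the log2 scale (SE 0.40, adjusted p = 0.0368, edgeR). *ALPK2*, an alpha-kinase, had 5.02, 6.26 and 8.06 against 6.09, 11.19 and 14.19. The score 0 or 1 tumors spread widely, with TC640 (6.09) and TC1164 (7.79) inside the score 3 range and TC1123 at 14.19 (log2 fold change -5.46, SE 0.97, adjusted p = 0.0477, edgeR). *DGKH*, a diacylglycerol kinase, had 8.62, 9.54 and 9.95 against 9.67, 10.71 and 11.32 (log2 fold change -1.35, SE 0.24). *PXK*, a phosphoinositide-binding PX domain protein, had 8.43, 8.94 and 9.58 against 9.27, 10.63 and 11.62 (log2 fold change -1.76, SE 0.30). Its overlap came from TC640 (9.27), a female of the score 0 or 1 group, and the other female of that group, TC2288, had 9.61. The log2 fold change of *PXK* was -0.48 among females, -1.83 among males and -1.18 with sex in the fit. That of *ALPK2* was -2.95 among females and -7.34 among males, and whether these differ between the sexes was not tested. For the other 6 called genes the values among females and males were 0.89 and 0.94 (*GLE1*), 1.33 and 1.03 (*SSNA1*), 1.06 and 1.07 (*CNIH4*), 1.20 and 1.75 (*DHX58*), -2.69 and -3.34 (*HSD17B13*) and -1.54 and -1.23 (*DGKH*).

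The 12 genes next in order of p by the same rule, which did not pass the threshold, were 6 with higher and 6 with lower values in score 3, and 11 of them are described. *SLC26A11*, an anion transporter, had 10.16, 11.00 and 12.32 against 8.81, 9.66 and 10.16, the groups meeting without overlap at 10.16 (log2 fold change 1.54, adjusted p = 0.0578, edgeR). *PHB*, the mitochondrial chaperone prohibitin, had 10.63, 11.04 and 11.69 against 9.55, 10.17 and 10.48, also without overlap (log2 fold change 1.03, adjusted p = 0.0578, edgeR). *DNER*, a transmembrane protein with EGF repeats that binds Notch, spanned 3.28 to 11.00 in score 3 and 3.01 to 5.46 in score 0 or 1. All score 3 tumors except TC2011 lay above all of score 0 or 1 (log2 fold change 4.30, SE 0.79, adjusted p = 0.0578, edgeR). *MARCKSL1*, *TOR1B* and *TMEM98* had log2 fold changes of 1.87, 0.91 and 1.25 with adjusted p between 0.0688 and 0.0753.

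On the lower side, the receptor tyrosine kinase gene *MET*, whose ligand is hepatocyte growth factor, had 6.99, 8.63 and 9.62 in score 3 and 9.30, 10.87 and 12.20 in score 0 or 1. Its log2 fold change was -2.40 (SE 0.49, adjusted p = 0.0753, edgeR), with -0.91 among females and -2.73 among males. *NUDT9*, an ADP-ribose hydrolase, and *MEF2A*, a transcription factor, did not overlap between groups, with log2 fold changes of -0.77 and -0.96 (adjusted p of both 0.0688, edgeR). *SORBS2*, an actin adaptor, and *SYTL2*, a Rab27 effector, had -1.55 and -2.72. Over all genes tested, 9 were without overlap and higher in score 3 (0.052%) and 6 were without overlap and lower (0.0347%). All 20 genes chosen by this rule had the same sign among females as among males. The same tumors chose the genes, so the shared sign is no separate test of sex. In the 7 score 2 tumors, which the fit did not use, the median level of 15 of the 20 lay between the medians of the compared groups. The genes were chosen for the gap between those groups, and the share over all genes was not computed, so this is a description only.

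**Figure D2:**
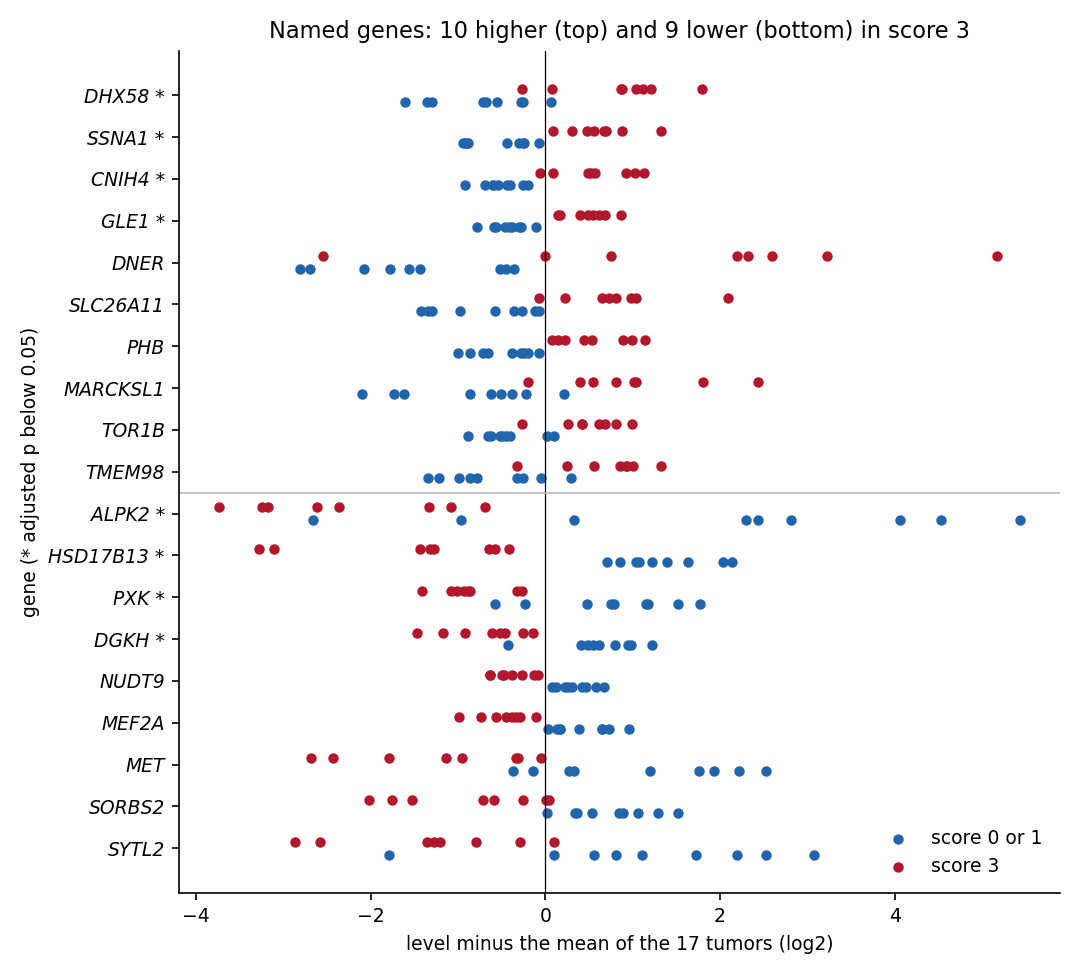
Level of 19 of the 20 genes chosen by p and fold change in each of the 17 tumors, minus the mean of the 17 (log2), with score 3 tumors in red and score 0 or 1 tumors in blue; an asterisk marks the 8 genes with adjusted p below 0.05. The groups do not overlap for 8 of them, among them *GLE1*, *SSNA1*, *CNIH4* and *HSD17B13*.

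Genes beside *ERBB2* had higher values in score 3 as well. The list of *ERBB2* chromosomal neighbours, which includes *ERBB2*, had 23 members tested, of which 21 had a log2 fold change above 0, with a median of 0.69 against -0.02 over all genes. None was called by edgeR, 14 had an unadjusted p below 0.05, all higher (7.69% of all genes), and DESeq2 called 4 higher, namely *ERBB2*, *TCAP*, *PSMD3* and *CDC6*, beside 1.88% of all genes. The genes most often named with *ERBB2* in breast carcinoma, *PGAP3*, *MIEN1*, *STARD3* and *GRB7*, had log2 fold changes of 1.05 (SE 0.33), 1.06 (SE 0.33), 0.81 (SE 0.25) and 0.73 (SE 0.32), all overlapping between groups. *PSMD3*, a proteasome subunit, had levels of 10.81, 11.20 and 12.04 in score 3 and 9.98, 10.18 and 11.30 in score 0 or 1 (log2 fold change 0.88, SE 0.23, adjusted p = 0.147, edgeR). *CDC6*, a replication licensing factor, had 7.00, 7.73 and 8.88 against 6.13, 6.55 and 7.51 (log2 fold change 1.16, SE 0.29, adjusted p = 0.143, edgeR). Other members of the list, *CDK12*, *MSL1* and *THRA*, had 0.12, -0.05 and -0.02. The strand setting of the counting is not stated, so reads of genes that overlap on opposite strands cannot be told apart.

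The higher values were not confined to the neighbours. This pattern was noticed after the values were seen and is given as a description, with no test. Ordered by the UU_Cfam_GSD_1.0 gene table, the 5 tested genes on either side of *ERBB2* had a median log2 fold change of 0.84, the 15 on either side 0.52 and the 50 on either side 0.35. The chromosome that carries *ERBB2* held 798 of the 12749 tested genes matched to the table by symbol (6.26%). Its median log2 fold change was 0.397, the highest of 39 chromosomes, the other 38 lying between -0.45 and 0.30. Of its genes, 635 had a log2 fold change above 0 (79.6%), and 273 were higher with an unadjusted p below 0.05 (34.2%). On the other chromosomes together that share was 7.03%, and it ranged from 0.608% to 23.9% between them. Cut into 10 stretches of 79 or 80 genes, the chromosome had a median of 0.22 to 0.58 in each, and the stretch with *ERBB2* had 0.37.

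Of the 4 genes called higher, 3 lay on it, namely *GLE1*, *SSNA1* and *DHX58*, as did 7 of the 10 genes named as higher and 0 of the 10 named as lower. Among the 30 matched genes with the lowest p on the higher side, 20 lay on it. The median stayed between 0.36 and 0.47 with any single tumor left out, and was 0.44 among females, 0.62 among males, 0.52 with sex in the fit and 0.54 without the ectopic tumors.

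**Figure D3:**
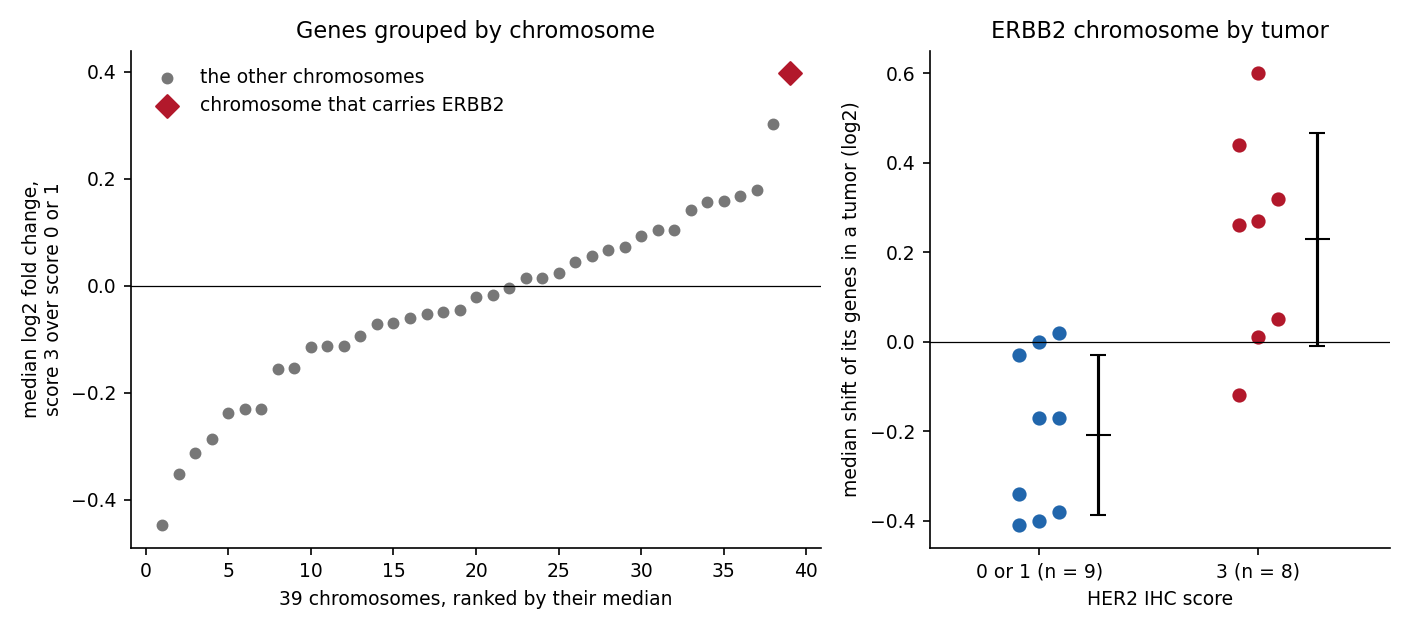
Left, the median log2 fold change of tested genes on each of 39 chromosomes, ranked, with the chromosome that carries *ERBB2* as a diamond at 0.397. Right, the median shift of that chromosome's genes in each tumor (log2), with mean ± SD; score 3 tumors lie between -0.12 and 0.60 and score 0 or 1 tumors between -0.41 and 0.02.

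By tumor, the median deviation of these genes from the mean of the 17 tumors, less that of all genes, was -0.12 at the lowest, 0.27 at the median and 0.60 at the highest in score 3. In score 0 or 1 it was -0.41, -0.17 and 0.02, so that TC2402 (-0.12) and TC2089 (0.01) of score 3 lay within the range of the other group. TC1869 and TC2011, with the highest *ERBB2* levels, also had the largest shifts, 0.60 and 0.44. Below them the order was not kept. TC1213 and TC815, with the lowest *ERBB2* levels of score 3 (12.99 and 13.20), had shifts of 0.27 and 0.32. TC812 and TC2089, with levels of 13.77 and 13.61, had 0.05 and 0.01. The deviation of *ERBB2* from the mean of the 17 tumors, less that of all genes and less the shift of its chromosome, was also taken. It had medians of 0.33 in score 3 and -0.42 in score 0 or 1, with ranges of -0.50 to 1.16 and -0.83 to 0.41. Other chromosomes moved too: the SD over the other 38 chromosome shifts of a tumor had a median of 0.33 in score 3 and 0.21 in score 0 or 1. The part of RNA composition or library preparation in these shifts was not tested.

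**Figure D4:**
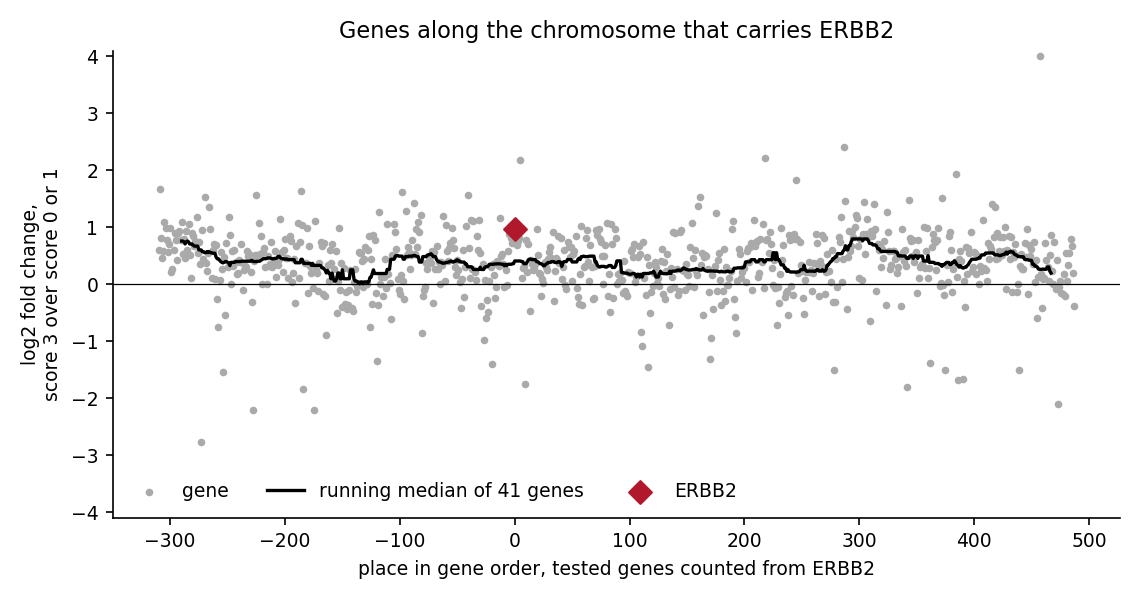
Log2 fold change of the 798 tested genes along the chromosome that carries *ERBB2*, in gene order counted from *ERBB2*; the line is the running median of 41 genes and the diamond is *ERBB2*. The 1 gene beyond 4 is drawn at the axis limit, and the running median stays above 0 wherever it is drawn.

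The signalling genes below the receptor showed no called member. Of 16 RAS-ERK adaptors and kinases, 9 had a log2 fold change above 0 (median 0.10). *GRB2*, the adaptor that links phosphorylated receptors to SOS, had 0.57 (SE 0.21) and lies on the *ERBB2* chromosome, while the exchange factors *SOS1* and *SOS2* had -0.76 (SE 0.28) and -0.75 (SE 0.27). Of 18 PI3K-AKT-S6 kinase genes, 9 were above 0 (median -0.01), the highest being *AKT2* with 0.41 (SE 0.20). The 10 target genes of the MAPK activity score had a median of -0.05, with the ERK phosphatase *DUSP6* at -0.78 (SE 0.43) and *ETV4* at 0.27 (SE 0.67). That median was 1.08 among females and -0.43 among males, and *DUSP6* had 0.87 among females and -1.35 among males. Whether the sexes differ in this was not tested. These lists, of 16, 18 and 10 genes, held 4 genes with an unadjusted p below 0.05 in all, 1 higher and 3 lower. Over all genes tested the share was 15.3%, with 7.69% higher and 7.61% lower.

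Genes that fold, degrade or restrain HER2 went in both directions. Of 14 tested, 6 were above 0 (median -0.15). The chaperone *HSP90AB1* had a log2 fold change of 0.47 (SE 0.18), the ubiquitin ligase *RNF41* 0.48 (SE 0.19) and *TOB1*, an antiproliferative protein whose gene lies on the *ERBB2* chromosome, 0.70 (SE 0.22). The receptor inhibitor *LRIG1* had -0.51 (SE 0.23) and the phosphatase *PTPN12* -0.72 (SE 0.23). Of 8 transcription factors that bind the *ERBB2* promoter in other tissues, *TFAP2A* had -1.50 (SE 1.13) and *ELF3* 1.26 (SE 0.60), with a list median of -0.66. The median turned to 0.84 without TC2288 and to 0.50 among females, and ran from -0.88 to 0.84 over all settings. *TFAP2B* and *GATA3*, at -1.29 and -1.88 with both sexes, had no value among females. The median among females is therefore not over the same genes, and its turn cannot be read as a difference by sex.

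Proliferation genes had a median of 0.41, and 19 of 21 tested were above 0. Of these, 6 had an unadjusted p below 0.05, all higher, beside 7.69% of all genes, and DESeq2 called 3 of them, beside 1.88%. *MCM5* and *MCM2*, subunits of the replicative helicase, had log2 fold changes of 1.51 (SE 0.38) and 1.46 (SE 0.42), and *TYMS*, which makes thymidylate, 0.72 (SE 0.20). The edgeR adjusted p was 0.145, 0.152 and 0.147. *MKI67*, the usual proliferation stain, had 0.25 (SE 0.23), with levels of 8.32, 9.25 and 9.95 in score 3 and 8.36, 9.02 and 9.54 in score 0 or 1.

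Thyroid differentiation genes showed no common direction: 7 of 20 were above 0 (median -0.11). *TG* had 0.08 (SE 0.98) and *SLC5A5*, the iodide transporter, 0.61 (SE 1.28), each with a spread of several log2 units within both groups. *IYD*, the iodotyrosine deiodinase, had 0.78 (SE 0.36) and *HHEX* 0.55 (SE 0.24), the 2 members with an unadjusted p below 0.05. Over all genes tested, 7.69% were higher and 7.61% lower at that p. Of 14 epithelial adhesion and keratin genes, 12 were above 0 (median 0.54), with *GRHL2* at 0.84 (SE 0.40), *JUP* at 0.55 (SE 0.24) and the cadherin *CDH16* at -3.23 (SE 1.07). DESeq2 called *CDH16* lower (adjusted p = 0.0211), beside 1.35% of all genes, and 0 members higher, beside 1.88%. The edgeR adjusted p of *CDH16* was 0.186. Mesenchymal genes had a median of -0.20, with the repressor *ZEB1* at -1.43 (SE 0.45) and *FN1*, fibronectin, at 1.12 (SE 0.46). VEGF, hypoxia and glycolysis genes had a median of 0.00 with 0 of 18 under an unadjusted p of 0.05 and 0 called by DESeq2. Interferon and antigen presentation genes had a median of 0.14, with *OAS1* at 1.04 (SE 0.46). X-linked genes that escape inactivation in mammals, listed because sex was unequal, had a median of -0.17 over 11 tested, with 0 higher and 1 lower at an unadjusted p below 0.05 and 0 called by either tool.

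Over the 24 lists together, 275 genes were tested, edgeR called 0, DESeq2 called 8 higher and 2 lower, and the unadjusted p was below 0.05 for 39 higher and 17 lower, 20.4% against 15.3% of all genes. The lists share members with the *ERBB2* chromosome and were chosen with earlier results known, so this share stands as a description. Over all settings the median kept its sign for the *ERBB2* neighbours (0.56 to 0.77), the proliferation genes (0.32 to 0.52) and the epithelial genes (0.31 to 0.69). It took both signs for the RAS-ERK genes (-0.15 to 0.18), the PI3K-AKT genes (-0.11 to 0.12), the thyroid genes (-0.45 to 0.67), the mesenchymal genes (-0.54 to 0.12) and the interferon genes (-0.07 to 0.60). A gene with no value in a setting was left out of the median there, so these ranges are not always over the same genes.

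**Figure D5:**
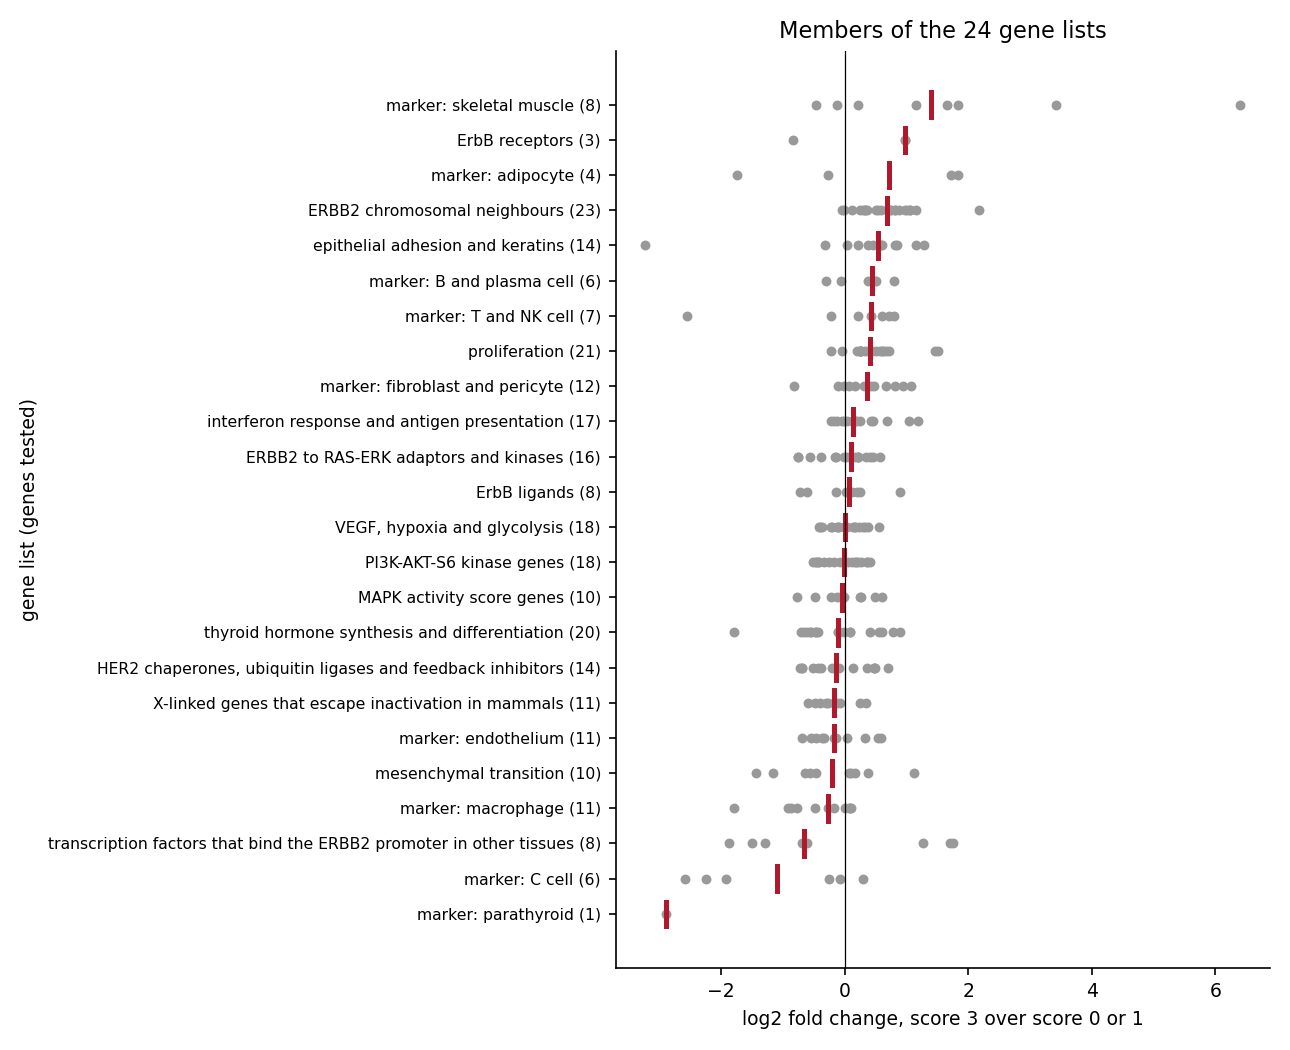
Log2 fold change of each tested member of the 24 gene lists (grey points) with the list median (red line); the number tested is beside each name. The *ERBB2* neighbours and the proliferation genes lie mostly above 0, with medians of 0.69 and 0.41.

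Markers of other cells in the tumor pieces were set beside these results. In bulk tissue, fewer cells of a type and less RNA per cell cannot be told apart. Levels summed over a list overlapped between the groups for all 9 marker lists, and no list member was at 0 in all 17 tumors. Summed endothelial markers ran from 12.50 to 15.10 in score 3 and from 12.29 to 14.98 in score 0 or 1, fibroblast and pericyte markers from 13.45 to 16.62 and from 12.70 to 16.15, and macrophage markers from 12.38 to 13.30 and from 11.95 to 14.27. T and NK cell markers ran from 8.50 to 9.55 and from 8.31 to 11.52, highest in TC1994, and B and plasma cell markers from 13.11 to 15.02 and from 12.98 to 13.95. *CD4* alone reached 7.49 in score 3 and 11.18 in score 0 or 1 (log2 fold change -2.55, SE 0.92, adjusted p = 0.21, edgeR). DESeq2 called *CD4* lower (adjusted p = 0.0454), beside 1.35% of all genes, while 5 of 7 T and NK cell markers tested were above 0. The B and plasma cell sums lay close to the level of *CD79A* alone, from 12.87 to 14.97 and from 12.64 to 13.90. The B-cell marker *MS4A1* reached 3.32 and 2.38. *CD79A* had a log2 fold change of 0.80 (SE 0.26, adjusted p = 0.181, edgeR). Adipocyte markers ran from 7.25 to 10.35 and from 7.10 to 11.31. Muscle markers ran from 10.18 to 12.38, highest in the ectopic TC2089, and from 10.11 to 12.05. Of 8 muscle markers tested, 6 had a log2 fold change above 0 and 4 were higher with an unadjusted p below 0.05, beside 7.69% of all genes. DESeq2 called 1 higher, beside 1.88% of all genes, the creatine kinase *CKM* (log2 fold change 1.83, SE 0.51, and 1.14 without the ectopic tumors). *MYH7* had 0.21 (SE 0.25), *ACTA1* -0.13 (SE 0.80) and *MYOT* -0.46 (SE 0.53). The myosin *MYH2* had a median level of 4.00 and a highest of 10.00 in score 3, and 0.00 and 3.78 in score 0 or 1. Its log2 fold change was 6.40 (SE 1.56, adjusted p = 0.143, edgeR). Without the ectopic tumors the muscle list median went from 1.40 to 0.15. *MYH2* had no value without those tumors, so the median of 0.15 leaves it out. C-cell markers ran from 7.57 to 11.97 and from 7.39 to 13.21, highest in TC22, and parathyroid markers from 2.42 to 4.77 and from 2.95 to 14.84, highest in TC2288. The part of these cells, and of sex, in the gene differences was not tested beyond the fits given.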

How the data were processed

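RNA from 30 frozen canine thyroid carcinomas was sequenced by the authors as paired-end reads from ribosomal RNA-depleted total RNA libraries and mapped to CanFam3.1 with STAR. The deposited values are raw counts of reads per Ensembl gene and tumor, with no normalization, for 30424 genes, 15780 with a symbol. The build and aligner are named in the submitters' processing notes, and the strand setting of the counting is not given in the sources used here. IHC scores, sex and histology came from the study's clinical table by tumor name. The members, gene lists and alternatives were chosen with earlier results of these data known.

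Genes that reached 10 counts in 5 or more of the 17 tumors were tested with edgeR 4.0.16 (R 4.3.3, TMM, quasi-likelihood test, Benjamini-Hochberg adjustment over 17310 genes); a gene was called at an adjusted p below 0.05, with no fold limit. SE is the log2 fold change divided by the root of the F statistic. Levels used median-of-ratios size factors over the 15611 genes counted in all 30 tumors and a pseudocount of 1. DESeq2 1.42.0 was an alternative. Both tools were tested on simulated counts. The difference in *ERBB2* level was tested by exact permutation. Python 3.11.15, numpy 2.4.6, scipy 1.17.1, pandas 2.3.3 and matplotlib 3.10.9 were used.

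Named genes are *ERBB2*, the ErbB receptors and ligands, and, in each direction, called genes that have a symbol and whose median normalized count reached 100 in the group where they were higher (up to 15, by fold change), filled up to 10 with the lowest p. Uncalled list members are named where their list is described; the results of some genes are not reported here. Gene order came from the UU_Cfam_GSD_1.0 table, matched by symbol, without coordinates. Each dog gave 1 tumor, so p-values measure the spread between dogs. Alternatives were DESeq2, its size factors, other count filters, TC1088 included, Peña scores, terms for sex, pattern or differentiation, no ectopic tumors, each sex alone, each tumor left out, and a fold limit; splits within sex and the chromosome median were added after the data were seen.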

Additional observations from a re-analysis of the deposited data

Results flagged for a closer look

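Over 68 groups of values, namely the levels of the named genes and the chromosome measures in the 8 score 3 or the 9 score 0 or 1 tumors, 2 single tumors lay far from the rest of their group by Dixon's 95% limit. Chance alone flags about 1 in 20 groups. *DGKH* was 9.67 in TC1744 of the score 0 or 1 group, with the nearest other tumor at 10.51, a gap of 0.508 of the group's range. That value was the one score 0 or 1 tumor inside the score 3 range of 8.62 to 9.95. *TGFA* was 4.08 in TC2089 of the score 3 group, an ectopic tumor, with the nearest other tumor at 6.12, a gap of 0.649 of the range.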

How the results depend on the processing

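The counts of genes called by edgeR were sensitive to the processing. Against 4 higher and 4 lower, DESeq2 gave 325 and 233, DESeq2 size factors in edgeR 8 and 4, 10 counts in 8 or more of the 17 tumors 9 and 4, 10 counts in 5 or more of all 30 tumors 8 and 4, and TC1088 included 11 and 4. No count filter gave 0 and 1 over 27734 genes. The Peña score, the terms for sex, pattern and differentiation, the tumors without the ectopic ones, females alone and males alone each gave 0 and 0, with 2343, 2480, 2314, 2386, 3429, 901 and 1567 genes at an unadjusted p below 0.05. A log2 fold change beyond 2 left 0 and 2. Leaving out 1 tumor gave 0 to 2 higher and 0 to 3 lower. The subsets hold fewer tumors by construction; otherwise the cause was not tested. The difference in *ERBB2* level kept its direction under all alternatives run, from 0.76 to 1.28, and passed 0.05 in all but males alone (1.28, exact permutation p = 0.0833); without 1 tumor it ranged from 0.79 to 1.08. Directions turned for uncalled ErbB genes. *ERBB3* was -0.07 in females. *EGF* was -0.60 by DESeq2, -0.81, -1.32 and -0.39 with sex, pattern and differentiation terms, -4.91 without ectopic tumors, -5.78 in males and -2.06 to 1.55 without 1 tumor. *AREG* was 0.02 with Peña, 1.51 and 0.31 with sex and pattern terms, 0.19 without ectopic tumors, 0.95 in males and -1.11 to 0.71 without 1 tumor. *HBEGF* was 0.00 with Peña and -0.02 without ectopic tumors. *NRG1* was -1.61 with TC1088, -0.58, -0.21 and -0.01 with the sex, pattern and differentiation terms, -1.63 without ectopic tumors, -1.25 in males and -0.56 to 0.25 without 1 tumor. *NRG3* was -0.61 without ectopic tumors, -0.74 in males and -0.80 to 1.15 without 1 tumor. No paired analysis was possible because each tumor came from a different dog and replicate numbers only name samples in accession order. *ERBB4*, *EREG* and *BTC* stayed under the count minimum in these tumors and were not tested.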

Other observations

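Of the 325 genes that DESeq2 called higher in score 3, 279 could be placed on a chromosome by symbol, and 106 of these lay on the one that carries *ERBB2* (38%). Of the 233 called lower, 166 could be placed and 1 lay there (0.602%), beside 6.26% of all tested genes that could be placed. One other chromosome had 83 of 347 tested genes higher with an unadjusted p below 0.05 (23.9%) and a median log2 fold change of 0.303, and 0 genes called by edgeR. At the other end, a chromosome with 145 tested genes had a median of -0.448, with 31 genes lower at an unadjusted p below 0.05 (21.4%). No test was made of these shares, since chromosomes were looked at after the values were seen.

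In the 7 score 2 tumors the shift of the *ERBB2* chromosome ran from -1.17 to 0.29 (median -0.18), and in the 5 MTC from -0.34 to 0.30 (median -0.08). The -1.17 was TC538, whose other chromosome shifts had the largest SD of any tumor, 0.78. The rest of score 2 lay between -0.33 and 0.29. TC1088 had -0.42. The parathyroid hormone gene *PTH* was at 14.80 in 1 score 0 or 1 tumor, with 25445 reads, and at most at 2.91 in score 3, with 8 reads.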
